A study of Rattus norvegicus with 9 samples.

Results

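The genes described here are those of DNA replication and S phase: the origin licensing factors, the MCM helicase, the polymerases with their clamp and clamp loader, the enzymes of deoxynucleotide supply, the G1 and S phase cyclins and kinases, and checkpoint and chromatin genes of S phase. The list named 54 genes. Each was matched by its symbol to the probe sets that carry that symbol alone, and where a gene had several, the brightest by the mean of the 9 arrays was used. This gave 38 genes of the 10411 with such a probe set. The other 16 (Orc1, Cdc6, Cdt1, Gmnn, Mcm10, Cdc45, Gins2, Topbp1, Pole2, Rfc5, Rrm2, Cdk2, E2f1, Rbl1, Uhrf1 and Msh6) were not analysed here, and for Rrm2 this was because its 1 probe set carries several symbols.

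Expression had been measured on Affymetrix rat arrays in ventral midbrain (mesencephalon) of embryonic day 11 rats, labelled MesE11 (3 arrays), and in primary cultures dissociated from ventral midbrain of the same embryonic age after 9 days in vitro, labelled MesPC (6 arrays). Per the labels, embryos from 4 pregnant rats were mixed into 3 groups, so each sample is a pool of embryos, and cultures were grown in duplicate. The labels speak of 3 culture arrays where 6 are listed, and do not say which culture arrays came from the same embryo group. Strain, sex and culture medium are not given in the sources used here, and no group carries a treatment or a genetic change in the labels.

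Cells replicate their DNA once per cycle. The origin recognition complex, Cdc6 and Cdt1 load the MCM helicase onto origins in G1, cyclin-dependent kinases then activate it with Cdc45 and the GINS complex, and the polymerases follow with the Pcna clamp. Most of these genes are targets of E2F transcription factors, which D-type and E-type cyclins with their kinases release from the retinoblastoma family. In the embryonic midbrain many of these genes are active in the dividing progenitors of the ventricular zone and are turned down in neurons, which do not divide.

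Values are log2 intensities after RMA, a method that corrects background, brings the arrays to 1 scale and then averages the probes of a set robustly. A difference of 1 is a change of 2-fold. Differences are MesPC minus MesE11 and stand with the standard error of limma's fit (3 and 6 arrays). A gene rose or fell where its p, adjusted by the Benjamini-Hochberg method over 15866 probe sets, was under 0.05. These p-values cover only the spread between the samples at hand, which may hold fewer than 6 independent cultures. Levels are compared between arrays, never between genes. In bulk RNA, a change in the number of dividing cells and a change in RNA per cell cannot be told apart.

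The culture arrays formed 2 sets, numbered 1 to 3 and 4 to 6 in the labels, which name nothing that parts them. Pearson's r across probe sets was 0.997 or more within each set and at most 0.987 between them, where probe sets are no replicates. Values are therefore given for each set as well as for all 6. No test is given between the sets, as they were first seen in the arrays' own values. Midbrain marker genes with a probe set numbered 5 of 9 (not Lmx1a, Lmx1b, En1 or En2). Of these 2 rose, Otx2 (means of 10.23 in tissue, 10.91 in arrays 1 to 3 and 11.29 in arrays 4 to 6) and Shh (7.05, 7.54 and 7.67), and 2 fell, the dopaminergic factors Nr4a2 (9.24, 7.29 and 8.15) and Pitx3 (7.03, 6.58 and 6.62). Foxa2 read 9.61, 9.44 and 10.10 and did not pass, while 27 control probe sets for bacterial genes, a measure of background, gave 4.80 to 6.68. The list's summed linear intensity ran from 2671 to 3000 in tissue, from 2944 to 3179 in the first set and from 3962 to 4371 in the second, whereas the median of its log2 values was 9.19 to 9.34, 7.47 to 7.64 and 8.07 to 8.27.

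Among the 38 members, which were listed with earlier results of these data known, more genes rose in the cultures than fell. Of the 38 genes, 21 rose (55.3%), where 21.9% of all genes rose, and 3 fell (7.89%), where 22.7% of all genes fell. The median difference was 0.38, a 1.30-fold level, against −0.06 over all genes. No member rose by 2-fold or more over all 6 cultures, where 378 of 10411 genes did. Only 1 fell by that much, the cyclin gene Ccnd1, where 222 of 10411 genes did. For 17 members, every culture array exceeded every tissue array (44.7%, against 21.1% of all genes) and for 3 every culture array lay below (against 23.3%).

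The count of rises depended on which arrays were used. With culture arrays 1 to 3 alone, 31 members rose (25.7% of all genes did) and 2 fell (2815 of 10411 genes did). With arrays 4 to 6 alone 16 rose (22.9% of all genes) and 3 fell, Rfc4, Ccnd1 and Rpa3 (2828 of 10411 genes fell). Both comparisons share the tissue arrays. With a random block for the array sets, 10 rose (13.2% of all genes) and 1 fell (948 of 10411 genes did). Mcm2, Mcm5, Mcm6, Pold2, Pole, Pcna, Rrm1, Ccne2, E2f5 and Chek1 rose, and Ccnd1 fell. In this fit tissue was 1 block and the cultures 2, and 1 correlation, 0.447, served all probe sets. Its p-values may therefore still be too small. Without MesE11 replicate 1 there were 13 rises, and without MesE11 replicate 3 there were 10. Over all 15866 probe sets, 2523 and 2484 rose in these fits, against 3128 with all arrays. The 3 falls became 1 without MesE11 replicate 2, where 2739 probe sets fell against 3565 with all arrays. The 11 genes that passed with the random block also passed with any 1 array left out, and each of the other 13 lost its call without at least 1 array. Quantile normalization ended the calls of Mcm7, Rfc2, Rpa1 and Tk1, centring each array on its median those of Prim2, Rfc2 and Rpa1, and centring on ribosomal protein probe sets those of Orc5 and Prim2.

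**Figure D1:**
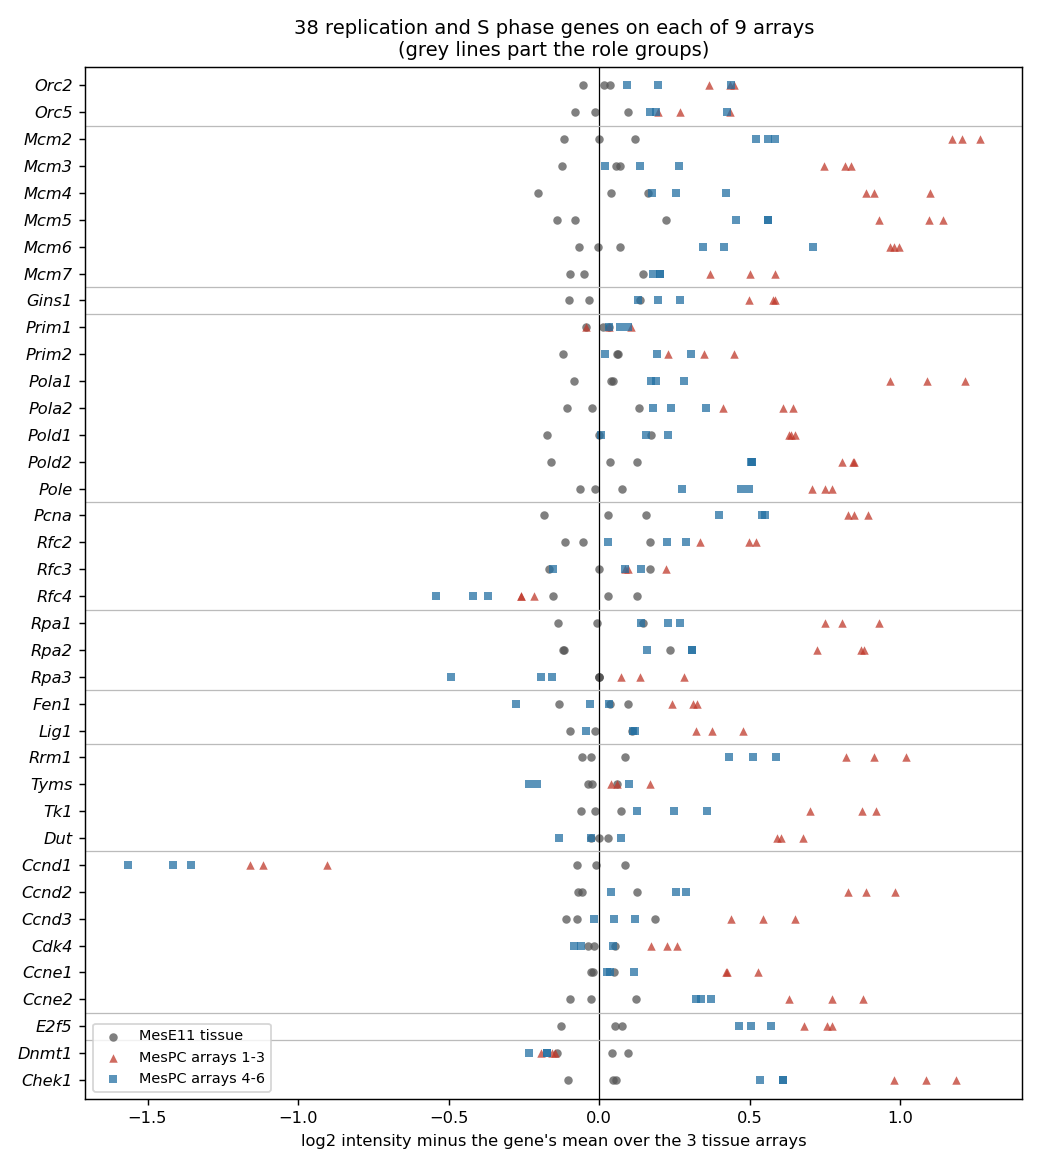
Each of the 38 replication and S phase genes (rows, parted by role) on each of 9 arrays, as log2 intensity minus the gene's mean over the 3 tissue arrays; circles are MesE11, triangles MesPC arrays 1 to 3 and squares MesPC arrays 4 to 6. The triangles lie to the right of every square in 31 rows, and Ccnd1 is the row far to the left, at a mean difference of −1.25.

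The sets differed in the same direction for nearly all members. Culture arrays 1 to 3 all lay above arrays 4 to 6 for 31 of 38 members (81.6%), where this held for 26.0% of all genes. They all lay below for 0 members, against 22.4% of all genes. The median of arrays 1 to 3 minus arrays 4 to 6 was 0.38 over the members, a 1.31-fold level, and 0.03 over all genes. For 15 members (39.5%) the order was arrays 1 to 3 above arrays 4 to 6 above tissue with no overlap at either step, against 8.61% of all genes. These 15 were Mcm2, Mcm4, Mcm5, Mcm6, Mcm7, Pola1, Pola2, Pold2, Pole, Pcna, Rrm1, Tk1, Ccne2, E2f5 and Chek1. Centring on ribosomal protein probe sets moved the median over all probe sets from 0.04 to −0.09 and that of the members to 0.26. Arrays 1 to 3 then lay above for 26 members and below for Prim1 and Dnmt1. The shares of all genes were not counted at this centring, so these counts stand without a background.

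**Figure D2:**
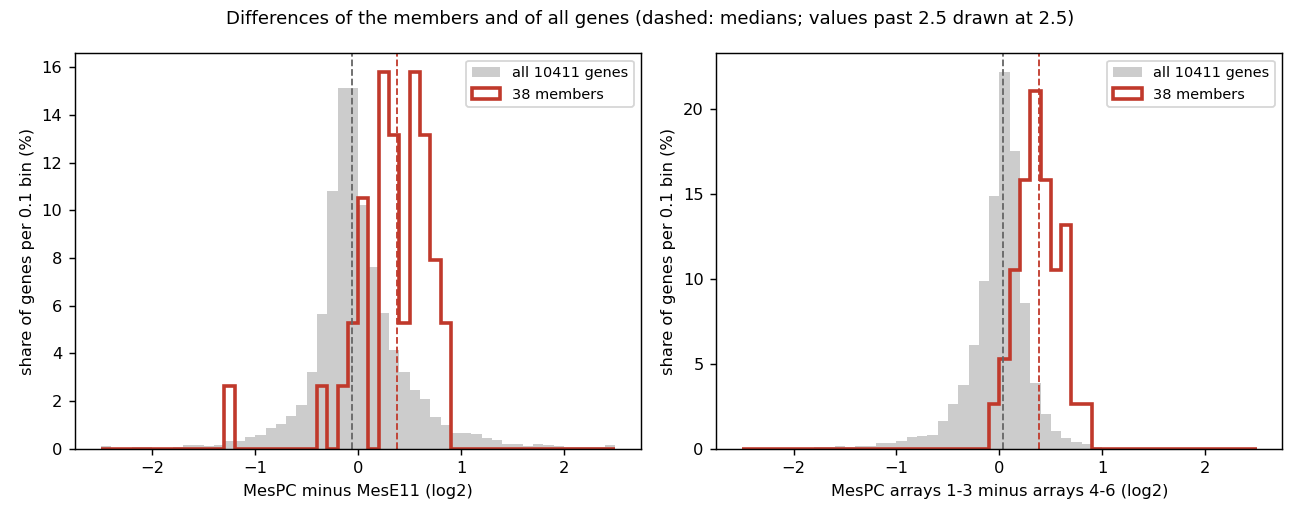
Distributions of log2 differences for all 10411 genes (grey) and the 38 members (red outline), as percent of genes per bin: MesPC minus MesE11 on the left and culture arrays 1 to 3 minus arrays 4 to 6 on the right, with dashed lines at the medians. The members' medians are 0.38 in both panels and those of all genes −0.06 and 0.03.

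The MCM genes encode the 6 subunits of the ring that unwinds DNA at the fork, and 5 of the 6 rose. Mcm2 read 8.93, 9.05 and 8.81 in tissue, 10.19, 10.14 and 10.10 in culture arrays 1 to 3, and 9.51, 9.49 and 9.45 in arrays 4 to 6. All culture arrays stood above all tissue arrays, the first set highest, and the difference of 0.88 ± 0.19 (adjusted p = 0.00481) was the largest rise among the 38 members. Mcm5 read 8.59, 8.53 and 8.89 in tissue, 9.60, 9.76 and 9.81 in arrays 1 to 3, and 9.23, 9.23 and 9.12 in arrays 4 to 6 (0.79 ± 0.17, adjusted p = 0.00463). Mcm6 read 9.19, 9.27 and 9.13, then 10.19, 10.18 and 10.16, then 9.91, 9.61 and 9.54 in the same order (0.73 ± 0.16, adjusted p = 0.00439). These 3 genes passed with the random block as well.

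Mcm4 and Mcm7 had the same order with smaller margins. Mcm4 read 8.44, 8.32 and 8.07 in tissue, 9.16, 9.37 and 9.19 in arrays 1 to 3, and 8.70, 8.53 and 8.45 in arrays 4 to 6, so the lowest culture value lay just above the highest tissue value (0.62 ± 0.21, adjusted p = 0.0355). Mcm7 read 10.93, 11.13 and 10.89, then 11.49, 11.57 and 11.35, then 11.16, 11.19 and 11.18 (0.34 ± 0.10, adjusted p = 0.0261). With the random block neither passed (adjusted p = 0.0864 and 0.117). Mcm3 read 8.64, 8.82 and 8.83 in tissue, 9.58, 9.60 and 9.51 in arrays 1 to 3, and 8.90, 9.03 and 8.78 in arrays 4 to 6. The second set overlapped tissue, and Mcm3 did not pass over all cultures (0.47 ± 0.19, adjusted p = 0.0737). Against tissue, arrays 1 to 3 alone stood 0.80 higher (adjusted p = 8.85e-06) and arrays 4 to 6 alone 0.14 higher (adjusted p = 0.187).

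**Figure D3:**
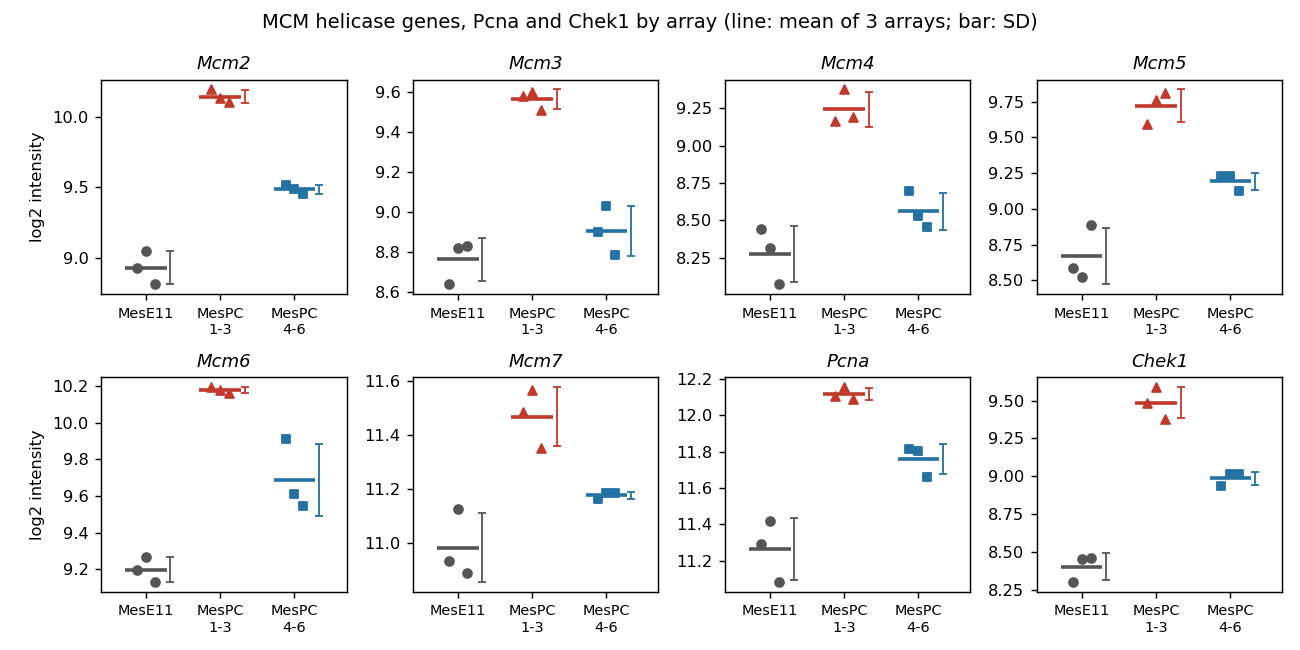
Log2 intensity of Mcm2 to Mcm7, Pcna and Chek1 in tissue (circles), culture arrays 1 to 3 (triangles) and culture arrays 4 to 6 (squares); lines are means of 3 arrays and bars their SD, and each panel has its own scale. Arrays 1 to 3 stand highest in all 8 panels, and only in the Mcm3 panel does the second set overlap tissue, at 8.78 to 9.03 against 8.64 to 8.83.

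The promoters of these genes are shown because most replication genes are known targets of E2F factors. A part of E2F in the differences was not tested. RefSeq (build GRCr8) gave a promoter, from 250 bases before to 50 bases after the start, for 32 of the 38 members (not Mcm4, Rpa3, Ccnd1, Ccnd2, Ccne2 or E2f5). The E2F motif was searched on both strands as TTTCCCGC, TTTCGCGC, TTTGCCGC or TTTGGCGC, and matches on opposite strands may overlap. It was found in 15 of the 32 (46.9%), among them 5 of 5 Mcm promoters, and in 2.82% of 19005 protein-coding promoters of the same length, or 3.57% of the 8551 whose gene is on the array. Of the members that rose 9 of 18 held it, of those that fell 1 of 2, and of those that did not pass 5 of 12. A match is a description of letters, not a site. The stretches of 60 bases below run 5′ to 3′ on the gene's strand, with the matches in capitals.
Mcm2 (chr4:122918095-122918154, minus strand, the 60 bases before the start): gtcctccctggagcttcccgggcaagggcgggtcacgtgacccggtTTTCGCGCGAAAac
Mcm5 (chr19:13488753-13488812, plus strand, the 60 bases before the start): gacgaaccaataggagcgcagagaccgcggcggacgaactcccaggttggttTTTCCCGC
Mcm6 (chr13:42404454-42404513, minus strand, from −161 to −102): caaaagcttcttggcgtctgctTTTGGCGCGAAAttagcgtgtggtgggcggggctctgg
Mcm7 (chr12:22163179-22163238, minus strand, the 60 bases before the start): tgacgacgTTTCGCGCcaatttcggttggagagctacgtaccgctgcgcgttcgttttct
Gins1 (chr3:160184860-160184919, plus strand, the 60 bases before the start): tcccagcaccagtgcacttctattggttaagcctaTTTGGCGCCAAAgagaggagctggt
Chek1 (chr8:44629844-44629903, minus strand, the 60 bases before the start): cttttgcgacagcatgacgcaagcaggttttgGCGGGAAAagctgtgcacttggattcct
In Mcm2, Mcm6 and Gins1 a match on either strand overlapped the other, and in Mcm2 and Gins1 both were the same motif, so that the capitals read as 1 inverted repeat. Tyms, whose mRNA did not differ past the threshold (below), also held a match, 37 bases before its start.
Tyms (chr9:120776084-120776143, minus strand, the 60 bases before the start): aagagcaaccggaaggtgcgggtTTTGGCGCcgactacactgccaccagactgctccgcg

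Of the origin licensing genes, Orc2 and Orc5, subunits of the origin recognition complex, rose by small amounts. Orc2 read 9.45, 9.43 and 9.36 in tissue, 9.86, 9.77 and 9.85 in culture arrays 1 to 3, and 9.85, 9.50 and 9.61 in arrays 4 to 6. The sets overlapped each other but not tissue (0.33 ± 0.09, adjusted p = 0.0137). Orc5 differed by 0.28 ± 0.08 (adjusted p = 0.0176), with a gap of 0.04 between the sets, and its dimmer probe set did not pass (0.07 ± 0.06, adjusted p = 0.351). Neither gene passed with the random block (adjusted p = 0.117 and 0.181). Gins1, a subunit of the GINS complex that joins the MCM ring in the active helicase, rose by 0.38 ± 0.12 (adjusted p = 0.0264, 0.0908 with the random block). It read 8.30, 8.47 and 8.24 in tissue, 8.84, 8.92 and 8.92 in arrays 1 to 3, and 8.53, 8.60 and 8.47 in arrays 4 to 6, the lowest of which lay at the highest tissue value.

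Of 7 primase and polymerase genes 4 rose and 0 fell. Pold2, the second subunit of DNA polymerase delta, read 8.80, 8.89 and 8.60 in tissue, 9.61, 9.61 and 9.57 in arrays 1 to 3, and 9.27 in each of arrays 4 to 6. It rose by 0.67 ± 0.11 (adjusted p = 0.00101), and no set overlapped another. Pole, the catalytic subunit of DNA polymerase epsilon on the leading strand, rose by 0.58 ± 0.11 (adjusted p = 0.00233), and Pola2, of the polymerase alpha complex that starts each strand, by 0.41 ± 0.11 (adjusted p = 0.0153, 0.0852 with the random block). Pola1, the catalytic subunit of polymerase alpha, had the widest gap between the culture sets among all 38 members. It read 6.82, 6.69 and 6.81 in tissue, 7.86, 7.74 and 7.99 in arrays 1 to 3, and 7.05, 6.96 and 6.94 in arrays 4 to 6, a gap of 0.88 or 1.84-fold between the sets. All culture values lay above tissue, yet with this spread Pola1 did not pass over all 6 (0.65 ± 0.25, adjusted p = 0.0582), while it passed with either set alone (adjusted p = 1.92e-06 and 0.0285).

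The other polymerase genes differed less. Pold1, the catalytic subunit of polymerase delta, read 9.17 to 9.19 in arrays 1 to 3, above the 8.37 to 8.72 of tissue, and 8.55 to 8.77 in arrays 4 to 6 (0.38 ± 0.16, adjusted p = 0.0757). Of the primase genes, whose products lay down the RNA primers, Prim1 read 10.12 to 10.19 in tissue and 10.12 to 10.27 over all cultures (0.05 ± 0.05, adjusted p = 0.458), and was the 1 member whose mean was not higher in arrays 1 to 3. Prim2 rose by 0.26 ± 0.09 (adjusted p = 0.0451), a call lost with the random block (adjusted p = 0.242).

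Pcna, the sliding clamp that holds the polymerases on DNA, read 11.29, 11.42 and 11.08 in tissue, 12.11, 12.16 and 12.09 in culture arrays 1 to 3, and 11.81, 11.80 and 11.66 in arrays 4 to 6. No group overlapped another, and Pcna rose by 0.68 ± 0.12 or 1.60-fold (adjusted p = 0.00191, 0.012 with the random block). Of the clamp loader genes, Rfc2 rose by 0.32 ± 0.11 (adjusted p = 0.043, 0.195 with the random block) and Rfc3 did not pass (0.08 ± 0.09, adjusted p = 0.498). Rfc4, of the same loader, went the other way. It read 9.90, 9.996 and 9.72 in tissue, 9.65, 9.61 and 9.61 in arrays 1 to 3, and 9.50, 9.45 and 9.33 in arrays 4 to 6. All culture values lay below tissue and Rfc4 fell by 0.34 ± 0.09 on the log2 scale (adjusted p = 0.0108, 0.0881 with the random block), with arrays 1 to 3 again above arrays 4 to 6.

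Replication protein A, the trimer that coats single-stranded DNA, was unequal among its subunits. Rpa2 read 8.19, 8.55 and 8.20 in tissue, 9.18, 9.19 and 9.03 in arrays 1 to 3, and 8.62, 8.62 and 8.47 in arrays 4 to 6, where 1 value lay within tissue (0.54 ± 0.18, adjusted p = 0.0337). Rpa1 read 9.39, 9.24 and 9.11, then 10.18, 9.9998 and 10.06, then 9.52, 9.48 and 9.39, where the lowest culture value lay at the highest of tissue (0.52 ± 0.18, adjusted p = 0.0438). Rpa1 and Rpa2 lost their calls with the random block (adjusted p = 0.0935 and 0.0937). Rpa3, the smallest subunit, read 9.74 in each tissue array, 9.87, 10.02 and 9.81 in arrays 1 to 3, and 9.58, 9.24 and 9.54 in arrays 4 to 6. The sets lay on opposite sides of tissue, and over all 6 arrays Rpa3 did not pass (−0.06 ± 0.15, adjusted p = 0.758). With arrays 4 to 6 alone its difference was −0.28 ± 0.09 (adjusted p = 0.0241), a fall.

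Fen1, which trims the flaps of Okazaki fragments, and Lig1, which seals them, did not pass. Fen1 read 8.52, 8.75 and 8.69 in tissue, 8.98, 8.89 and 8.96 in arrays 1 to 3, and 8.62, 8.68 and 8.37 in arrays 4 to 6 (0.10 ± 0.13, adjusted p = 0.551). Lig1 differed by 0.23 ± 0.11 (adjusted p = 0.123), and its values were 10.46 to 10.62 in arrays 1 to 3, 10.10 to 10.26 in arrays 4 to 6 and 10.05 to 10.25 in tissue. For both genes arrays 1 to 3 lay above all other arrays, while arrays 4 to 6 overlapped tissue. With arrays 1 to 3 alone both passed (adjusted p = 0.00774 and 0.00148).

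Of the genes of deoxynucleotide supply, Rrm1 and Tk1 rose. Rrm1, the large subunit of ribonucleotide reductase, read 9.31, 9.42 and 9.28 in tissue, 10.36, 10.25 and 10.16 in arrays 1 to 3, and 9.93, 9.85 and 9.77 in arrays 4 to 6. The groups did not overlap, and the rise was 0.71 ± 0.13 or 1.64-fold (adjusted p = 0.00177). Tk1, the thymidine kinase of dividing cells, rose by 0.54 ± 0.18 (adjusted p = 0.0333, 0.0756 with the random block). A dimmer probe set of Tk1 rose by 0.998 ± 0.30 (adjusted p = 0.0237), with a gap of 1.03 between the sets. Dut, which removes dUTP, read 10.85, 10.91 and 10.88 in tissue, 11.56, 11.48 and 11.47 in arrays 1 to 3, and 10.95, 10.85 and 10.75 in arrays 4 to 6, so that the second set lay around tissue (0.30 ± 0.19, adjusted p = 0.217). Tyms, thymidylate synthase, read 7.16 to 7.26 in tissue and 6.97 to 7.37 over all cultures (−0.01 ± 0.09, adjusted p = 0.929), which passed in neither set alone.

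The D-type cyclins, which couple growth signals to the start of the cycle, did not move together. Ccnd1, cyclin D1, read 10.90, 10.99 and 10.84 in tissue, 9.75, 10.005 and 9.79 in culture arrays 1 to 3, and 9.49, 9.55 and 9.34 in arrays 4 to 6. All cultures lay below all tissue arrays, and Ccnd1 fell by 1.25 ± 0.13 on the log2 scale, to 0.42 times the tissue level (adjusted p = 5.42e-05). Its other probe sets fell by 0.96 ± 0.10 (adjusted p = 7.31e-05) and 1.22 ± 0.11 (adjusted p = 1.96e-05). The brightest probe set fell with either culture set alone, by 1.06 and 1.45 on the log2 scale. Arrays 1 to 3 were still above arrays 4 to 6, by 0.38.

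Ccnd2, cyclin D2, read 10.83, 11.01 and 10.82 in tissue, 11.78, 11.87 and 11.71 in arrays 1 to 3, and 11.17, 11.14 and 10.93 in arrays 4 to 6. The gap of 0.70 between the sets, or 1.63-fold, left it short of the threshold over all cultures (0.55 ± 0.21, adjusted p = 0.0563). Against tissue it stood 0.90 higher with arrays 1 to 3 alone (adjusted p = 5.66e-06) and 0.19 higher with arrays 4 to 6 alone (adjusted p = 0.0841). Ccnd3, cyclin D3, read 9.57, 9.60 and 9.86 in tissue, 10.11, 10.22 and 10.33 in arrays 1 to 3, and 9.80, 9.73 and 9.66 in arrays 4 to 6 (0.30 ± 0.16, adjusted p = 0.144). Cdk4, the kinase partner of the D cyclins, read 12.67, 12.74 and 12.65 in tissue, 12.92, 12.86 and 12.95 in arrays 1 to 3, and 12.74, 12.63 and 12.61 in arrays 4 to 6. It did not pass over all cultures (0.09 ± 0.09, adjusted p = 0.392) and stood 0.22 above tissue with arrays 1 to 3 alone (adjusted p = 0.0126).

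**Figure D4:**
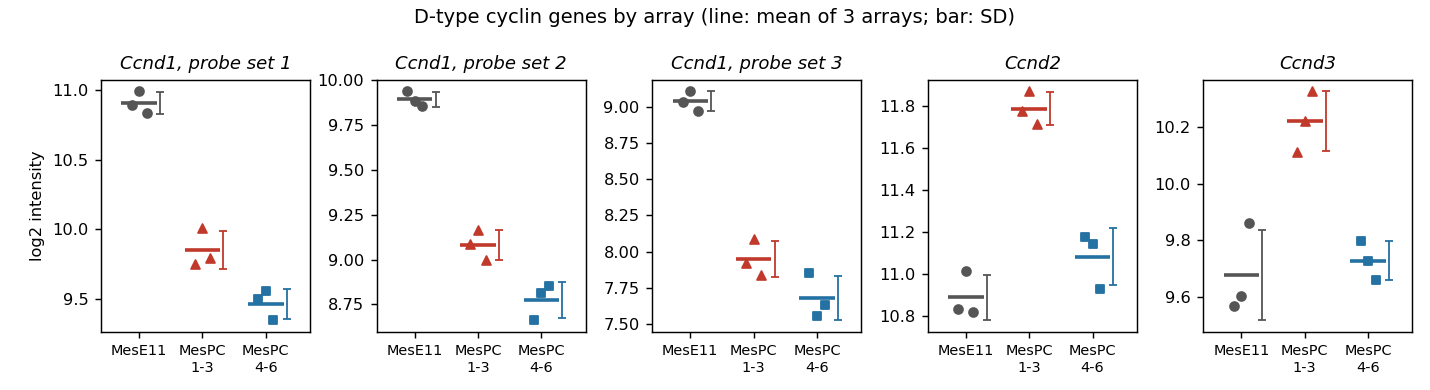
Log2 intensity of 3 probe sets of Ccnd1 (ordered by brightness) and of Ccnd2 and Ccnd3 in tissue, culture arrays 1 to 3 and culture arrays 4 to 6; lines are means of 3 arrays, bars their SD, and each panel has its own scale. All 3 Ccnd1 panels fall from tissue to both culture sets, whereas Ccnd2 and Ccnd3 are highest in arrays 1 to 3.

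The E-type cyclins, which act with Cdk2 at the entry into S phase, differed from each other in their calls. Ccne2 rose by 0.55 ± 0.13 (adjusted p = 0.00855, 0.032 with the random block), from 6.51, 6.73 and 6.58 in tissue to 7.38, 7.48 and 7.23 in arrays 1 to 3 and 6.97, 6.94 and 6.92 in arrays 4 to 6. Its tissue mean of 6.60 was the only tissue mean of a member below the highest single value of the bacterial controls, 6.68, with 1 tissue array above that value. Ccne1 read 8.89 to 8.99 in arrays 1 to 3, above the 8.44 to 8.52 of tissue and the 8.49 to 8.58 of arrays 4 to 6 (0.26 ± 0.12, adjusted p = 0.106). E2f5, an E2F factor that acts mostly as a repressor, read 9.37, 9.35 and 9.17 in tissue, 10.06, 10.07 and 9.98 in arrays 1 to 3, and 9.87, 9.76 and 9.80 in arrays 4 to 6. It rose by 0.63 ± 0.09 (adjusted p = 3.32e-04), with a gap of 0.22 between the sets.

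Chek1, the kinase of the replication checkpoint, rose by 0.83 ± 0.15 or 1.78-fold (adjusted p = 0.00181, 0.0052 with the random block). It read 8.30, 8.45 and 8.46 in tissue, 9.49, 9.59 and 9.38 in arrays 1 to 3, and 8.94, 9.01 and 9.01 in arrays 4 to 6, with no overlap. Dnmt1, which copies DNA methylation onto the new strand, read 10.79, 10.85 and 10.61 in tissue, 10.56, 10.59 and 10.60 in arrays 1 to 3, and 10.58, 10.58 and 10.52 in arrays 4 to 6. All culture values lay below tissue, the highest by a small margin, and Dnmt1 fell by 0.18 ± 0.06 on the log2 scale (adjusted p = 0.0339, 0.26 with the random block), with a gap of 0.03 between the sets. It passed with neither culture set alone (adjusted p = 0.0844 and 0.0575).

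Counts of other genes of the pathway stand against those of all genes, of which 21.9% rose and 22.7% fell (13.2% rose with the random block). Of 23 further genes of the replication machinery with a probe set, of 37 listed, 6 rose (26.1%) and 3 fell (13.0%), with a median difference of 0.15. With the random block 5 of the rises passed and none of the falls, those of Orc4, Pole4 and Rnaseh2a (adjusted p = 0.0719, 0.0562 and 0.0679). Top2a, the topoisomerase that untangles replicated DNA, rose by 1.40 ± 0.24, Dscc1, of a cohesion clamp loader, by 0.98 ± 0.24, and Asf1b, a histone chaperone, by 0.81 ± 0.21. Orc4, a further subunit of the origin recognition complex, fell by 0.74 ± 0.24 on the log2 scale (adjusted p = 0.0345, 0.0719 with the random block), with arrays 1 to 3 below arrays 4 to 6. The tissue mean of Dscc1 was 6.23, no brighter than bacterial controls. Arrays 1 to 3 lay above arrays 4 to 6 for 13 of the 23 and below for 5 (56.5% and 21.7%, against 26.0% and 22.4% of all genes).

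In a list of further nucleotide synthesis genes, 1 of 10 rose and 2 fell (median −0.00). Arrays 1 to 3 lay above arrays 4 to 6 for 8 and below for 2, against 26.0% and 22.4% of all genes. Cad, of pyrimidine synthesis, rose by 0.26 ± 0.06, while Nme1, a nucleoside diphosphate kinase, and Ctps1, CTP synthase, fell by 0.63 ± 0.13 and 0.28 ± 0.07 on the log2 scale. Of 10 further G1/S regulators 5 rose and 2 fell (median 0.02), and with the random block 1 rose, Tfdp1, and 1 fell, Mycn. Tfdp1, the partner of E2F factors, rose by 0.59 ± 0.08 and E2f8 by 0.46 ± 0.12 from a tissue mean of 6.07, again no brighter than bacterial controls. Mycn, a Myc family factor of neural progenitors, fell by 0.62 ± 0.16 on the log2 scale. Cdkn1a and Cdkn2c, inhibitors of cyclin-dependent kinases, rose by 0.62 ± 0.13 and 0.64 ± 0.15, and Cdkn1c fell by 0.81 ± 0.07 on the log2 scale. These were the 3 of 6 inhibitor genes that passed. With the random block Cad, Ctps1, E2f8 and Cdkn2c were among those that did not pass (adjusted p = 0.0935, 0.0764, 0.0558 and 0.0729).

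Of 13 DNA repair and checkpoint genes 2 rose and 2 fell (15.4% each, below the shares of all genes; median 0.07): Lig3 rose by 0.55 ± 0.13 (0.29 when its probe sets were averaged) and Parp1 by 0.35 ± 0.12, while Rad1 fell by 0.45 ± 0.05 on the log2 scale and Apex1 by 0.17 ± 0.05. Of these, Lig3, Parp1 and Apex1 did not pass with the random block (adjusted p = 0.11, 0.0943 and 0.212). Of 4 histone and histone mRNA genes, 1 rose, the linker histone H1f2, by 1.52 ± 0.14. Of 11 mitosis genes 9 rose (81.8%) and 0 fell, with a median difference of 0.90, and with the random block 6 rose, as Aurka, Plk1 and Bub1b lost their calls (adjusted p = 0.127, 0.0565 and 0.057). In this list arrays 1 to 3 lay above arrays 4 to 6 for 10 (90.9%, against 26.0% of all genes), all but Aurkb. For Aurkb they all lay below, with a mean difference of −0.64 (22.4% of all genes lay below). Aurkb, Cdk1 and Ccnb2 rose by 2.50 ± 0.21, 1.81 ± 0.23 and 1.78 ± 0.23. The summed linear intensity of these 11 genes was 4069 to 4397 in tissue, 11145 to 12065 in the first set and 7631 to 8682 in the second. For the 38 replication genes it was 33314 to 36271, 46818 to 48169 and 35189 to 38444, in the same order of groups, and sums weigh the brightest genes most.

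Markers of cell types also differed between the groups, and their part in the differences of the replication genes was not tested. The counts of markers stand against 21.9% of all genes that rose and 22.7% that fell. Of 11 neuron markers 6 fell and 0 rose, and arrays 1 to 3 lay below arrays 4 to 6 for all 11 (against 22.4% of all genes). Their summed intensity was 68547 to 73697 in tissue, 22705 to 25911 in the first set and 51822 to 53895 in the second, the reverse of the order of the replication genes. Th, the marker of dopaminergic neurons, read 11.53, 8.24 and 8.67 in these groups. Neural progenitor markers rose in 5 of 8 cases and 1 fell, by more than 2-fold, with sums of 19111 to 23154, 38964 to 42341 and 34167 to 35458. Arrays 1 to 3 lay above arrays 4 to 6 for 5 of these markers and below for 1, by a mean difference of −0.93. The shares of all genes were 26.0% and 22.4%.

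Of 9 fibroblast markers 8 rose and 1 fell, with sums of 2989 to 3351 in tissue, 26990 to 30564 in the first set and 26894 to 29196 in the second, so that the culture sets overlapped. Of 8 astrocyte markers 5 rose and 0 fell (8336 to 10920, 15397 to 16514 and 14186 to 15359). Markers of cells of blood and vessels fell: 4 of 4 erythroid genes (22273 to 26931, 759 to 789 and 589 to 660), 4 of 5 endothelium genes (1573 to 1783, 521 to 532 and 441 to 475) and 4 of 7 microglia and macrophage genes (1626 to 1692, 1235 to 1310 and 1149 to 1230). None of the markers measured was at 0, since RMA gives every probe set a positive value. The 3′ minus 5′ difference of the actin controls, a sign of RNA quality, was 0.515 to 0.798 in tissue, 0.350 to 0.490 in the first set and 0.536 to 0.669 in the second, and that of the GAPDH controls 0.705 to 0.775, 0.558 to 0.610 and 0.573 to 0.729. The part of RNA quality was not tested.

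**Figure D5:**
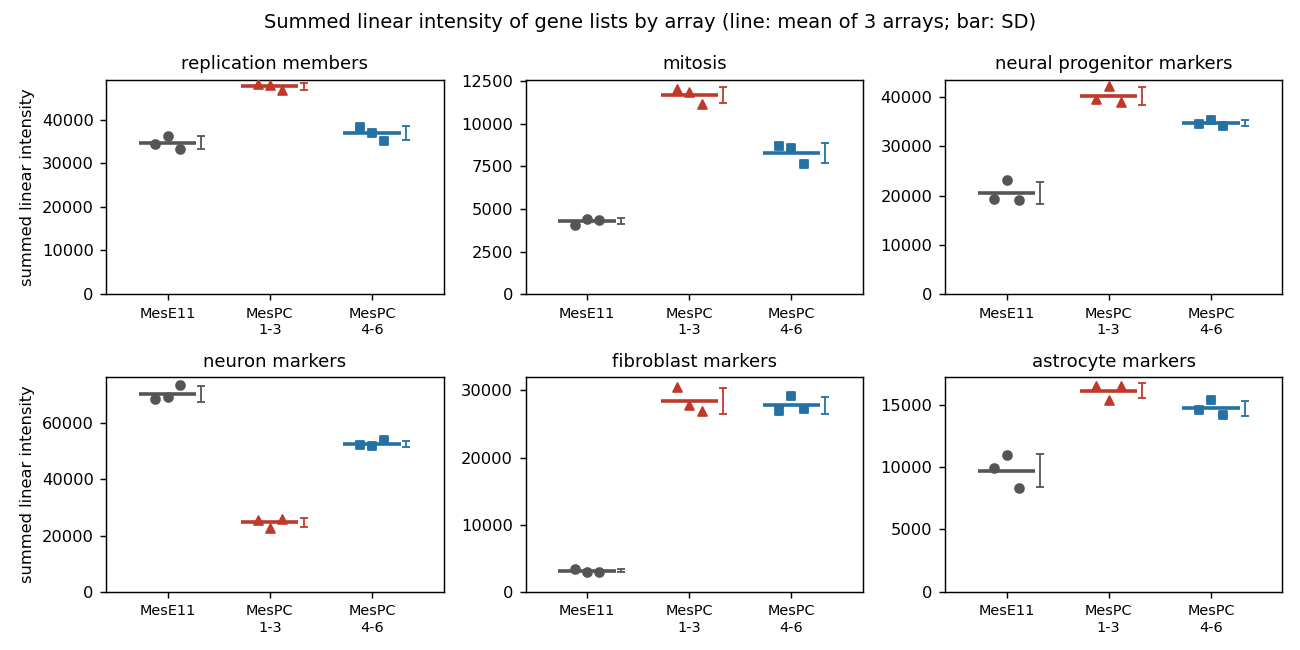
Summed linear intensity of 6 gene lists on each array of tissue (circles), culture arrays 1 to 3 (triangles) and culture arrays 4 to 6 (squares); lines are means of 3 arrays and bars their SD. Replication and mitosis genes are highest in arrays 1 to 3, where neuron markers are lowest, and the fibroblast sums of the 2 culture sets overlap.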

How the data were processed

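The deposited values are log2 intensities that the authors made with RMA, per the submitters' processing notes; the version of RMA was not stated there. Of 15923 probe sets, 57 Affymetrix controls were left out of the tests. Symbols came from the platform annotation (12783 probe sets with 1 symbol, 312 with several, 2771 not listed). Their Entrez numbers, looked up in RefSeq (GRCr8), changed 0 symbols. limma 3.58.1 in R 4.3.3 (lmFit, eBayes) compared 6 MesPC with 3 MesE11 arrays over 15866 probe sets, with Benjamini-Hochberg adjustment at a threshold of 0.05. The fit was tested on simulated data with independent errors on each array. These held no culture array sets, so the test cannot show whether the p-values hold with such sets. Culture arrays 1 to 3 and 4 to 6 were compared by values and overlap alone. Precision is limited by how few arrays there were.

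The members and lists were chosen with earlier results of these data known. The lists beside the members were further replication machinery, nucleotide synthesis, G1/S regulator, kinase inhibitor, repair, histone and mitosis genes, and markers of midbrain, neurons, progenitors, fibroblasts, astrocytes, erythroid cells, microglia and endothelium. Every member measured was named. Values by array were given for Pcna, Mcm2 to Mcm7, the D cyclins, Cdk4, E2f5, Dnmt1 and, per role, the largest rise, fall and set difference, and up to 3 changed genes were named per other list. Apex1, Aurka, Plk1, Bub1b, Orc4, Pole4, Rnaseh2a, Foxa2 and Pitx3 were named after their values were seen.

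The alternatives were other normalization, centring, a filter on dim probe sets, gene means, a variance trend, blocks, each culture set alone and leaving out each array. Deviations of equally numbered tissue and culture arrays from their group means correlated at −0.086 to 0.017. These values cannot decide whether the numbers are pairs, as the culture deviations also hold the difference between the culture array sets. The labels do not say which culture arrays came from the same embryo group, and the numbers were not taken as pairs.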

Additional observations from a re-analysis of the deposited data

Results flagged for a closer look

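Among the 6 culture arrays, the lowest value of Rfc3, 9.85 in MesPC replicate 6, stood apart from the others, with a gap to the next of 0.64 of the whole range. Chance flags about 1 in 20 such groups, and 38 genes were looked at. Rpa3 lay above all tissue arrays in culture arrays 1 to 3 and below all of them in arrays 4 to 6, and the sets' means differed by 0.444; this difference was not tested.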

How the results depend on the processing

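Over single members and alternatives, 588 values kept the direction and the side of the threshold, 80 lost a call, 36 gained one and 14 changed sign. With the random block for the array sets, 10 members rose and 1 fell, and 1879 probe sets rose and 1348 fell, where 3128 and 3565 did without it. Leaving out 1 array at a time gave 10 to 25 members higher, 1 to 3 lower, a median of 0.33 to 0.46, and 2484 to 3171 probe sets higher and 2241 to 3458 lower. Without the dimmest 40% of probe sets 1936 fell, of a smaller number tested. Centring on ribosomal protein probe sets gave 2 members with arrays 1 to 3 below arrays 4 to 6, against 0. The share of all genes was not counted at this centring. The replicate block, in which only numbers 1 to 3 are shared and arrays 4 to 6 add nothing, gave 31 members higher and 2 lower. In that fit 2574 of 10411 genes were higher and 2657 lower. Signs changed for genes that did not pass: Rpa3 and Tyms to 0.16 and 0.090 with arrays 1 to 3 alone and with the replicate block, Fen1, Dut and Cdk4 to −0.092, −0.030 and −0.033 with arrays 4 to 6 alone, Prim1 and Tyms to −0.0045 and 0.11 under quantile normalization, and, with 1 array left out, Rfc3 to −0.0043 and Tyms to 0.019 without MesE11 replicate 3, Tyms to 0.027 without MesPC replicate 4, and Rpa3 to 0.028 and Tyms to 0.032 without MesPC replicate 5 (ranges −0.13 to 0.028 for Rpa3 and −0.048 to 0.032 for Tyms). Apart from these constructions, the cause was not tested. Signal over background limits Ccne2 in tissue, near the brightest bacterial controls.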
